A study of Schizosaccharomyces pombe with 28 samples.

Results

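The transcripts described here belong to 9 genes of the glucose-sensing cyclic AMP (cAMP) pathway of the fission yeast Schizosaccharomyces pombe. They are git3 (SPCC1753.02c), gpa2 (SPAC23H3.13c, also git8), git5 (SPBC32H8.07, also gpb1), git11 (SPBC215.04), cyr1 (SPBC19C7.03, also git2), cgs2 (SPCC285.09c, also pde1), cgs1 (SPAC8C9.03), pka1 (SPBC106.10, also git6) and rst2 (SPAC6F12.02). They were chosen by name, through the current symbol or a synonym in the arrays' gene annotation. The choice used no cutoff on measured values, but earlier results of these data were known when it was made. All 9 were found among the 2899 S. pombe genes measured, each through 1 probe set, and all 9 lay above the array background on all 28 arrays.

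Fission yeast senses glucose through the cell surface receptor Git3, which acts on a heterotrimeric G protein made of the alpha subunit Gpa2, the beta subunit Git5 and the gamma subunit Git11. Activated Gpa2 stimulates the adenylate cyclase Cyr1, and the cAMP it makes releases the protein kinase A catalytic subunit Pka1 from its regulatory subunit Cgs1, while the phosphodiesterase Cgs2 breaks cAMP down. In glucose-rich medium Pka1 holds back the zinc finger activator Rst2, so that genes such as fbp1, for the gluconeogenic enzyme fructose-1,6-bisphosphatase, and ste11, for a regulator of mating and meiosis, stay low.

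Abundance was measured in polyA RNA of untreated cells grown in rich medium (yeast extract with supplements) to mid-log phase, on arrays that hold 1 labelled sample each. The tested strains were a double null of zfs1 and cbf12 (3 arrays, project 582), zfs1-null strains (3 arrays in project 488, 5 in project 529 and 3 in project 582) and a cbf12-null strain (3 arrays, project 582). Each project had its own wild type (WT), with 3, 5 and 3 arrays in projects 488, 529 and 582. Zfs1, a relative of mammalian tristetraprolin, binds AU-rich elements in mRNAs and hastens their decay. Cbf12 is a transcription factor of the CSL type. The labels give no further alleles, no mating type and no number of clones per strain. The submitters name the arrays of a group biological replicates without saying whether cultures were separate, so p-values cover only the spread among these samples.

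The deleted genes checked the labels: zfs1 signal was at least 81.3-fold lower than in the matched strain in every zfs1-null group, and cbf12 signal at least 38.1-fold lower in both groups without it. The arrays also carry budding yeast probe sets, of which those for GPA2 and CYR1 read at most 6.66 and 3.67 signal units. In project 582 the arrays WT replicate 1 and double null replicate 2 stood apart. Their mean correlations with the other arrays of their group were 0.979 for WT replicate 1 and 0.976 for double null replicate 2, the lowest of all 28 arrays. Double null replicate 1 came next, at 0.9805, close to WT replicate 1. WT replicate 1 and double null replicate 2 also had the largest excess of 3′ over 5′ signal in project 582. The mean log2 difference over 5 control transcripts was 0.81 for WT replicate 1 and 0.84 for double null replicate 2. The other arrays of project 582 lay between 0.37 and 0.70, and those of projects 488 and 529 between 0.80 and 1.01. The measure also differed between the strains of project 582. It was 0.55 to 0.845 in the double null, 0.376 to 0.501 in the zfs1-null strain, 0.369 to 0.493 in the cbf12-null strain and 0.479 to 0.809 in WT. Without replicate 2, the double null arrays, at 0.70 and 0.55, still lay above all arrays of both single nulls. Results from project 582 are therefore given with WT replicate 1 and double null replicate 2 and, where the call of a pathway gene changed, also without both. Some further values are given both ways. Values given only with these arrays shifted too. The git11 rise on loss of zfs1 in project 582 went from 0.87 to 0.75. The fall of gpa2 on loss of zfs1 in cells without Cbf12 went from -1.25 to -0.95. The part of the 3′ excess in the results was not tested otherwise.

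Signals are MAS5 intensities, scaled alike on each array. A signal can be compared between arrays for 1 gene but not between genes, whose probes differ. In bulk RNA, fewer cells that express a gene and less of its RNA per cell cannot be told apart. Log2 signals were compared with limma's moderated test, two-sided, and a difference counted as called where its p, adjusted by Benjamini-Hochberg across all 2899 genes, was below 0.05. Fold changes are small here: no pathway gene moved by 2-fold in the comparison of zfs1-null with WT strains.

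Loss of zfs1 moved the transcripts of the pathway in both directions. Over the 3 projects, with a term for project, the G protein gamma subunit gene git11, the cyclase gene cyr1 and the kinase gene pka1 rose. The beta subunit gene git5, the receptor gene git3, the regulatory subunit gene cgs1 and the alpha subunit gene gpa2 fell. The phosphodiesterase gene cgs2 and the transcription factor gene rst2 did not pass the test. That made 7 of 9 genes, 3 higher and 4 lower, where 41.6 percent of all genes tested were called. The median log2 difference of the 9 was -0.08, and -0.15 without both arrays that stood apart, beside 0.02 over all genes.

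**Figure D1:**
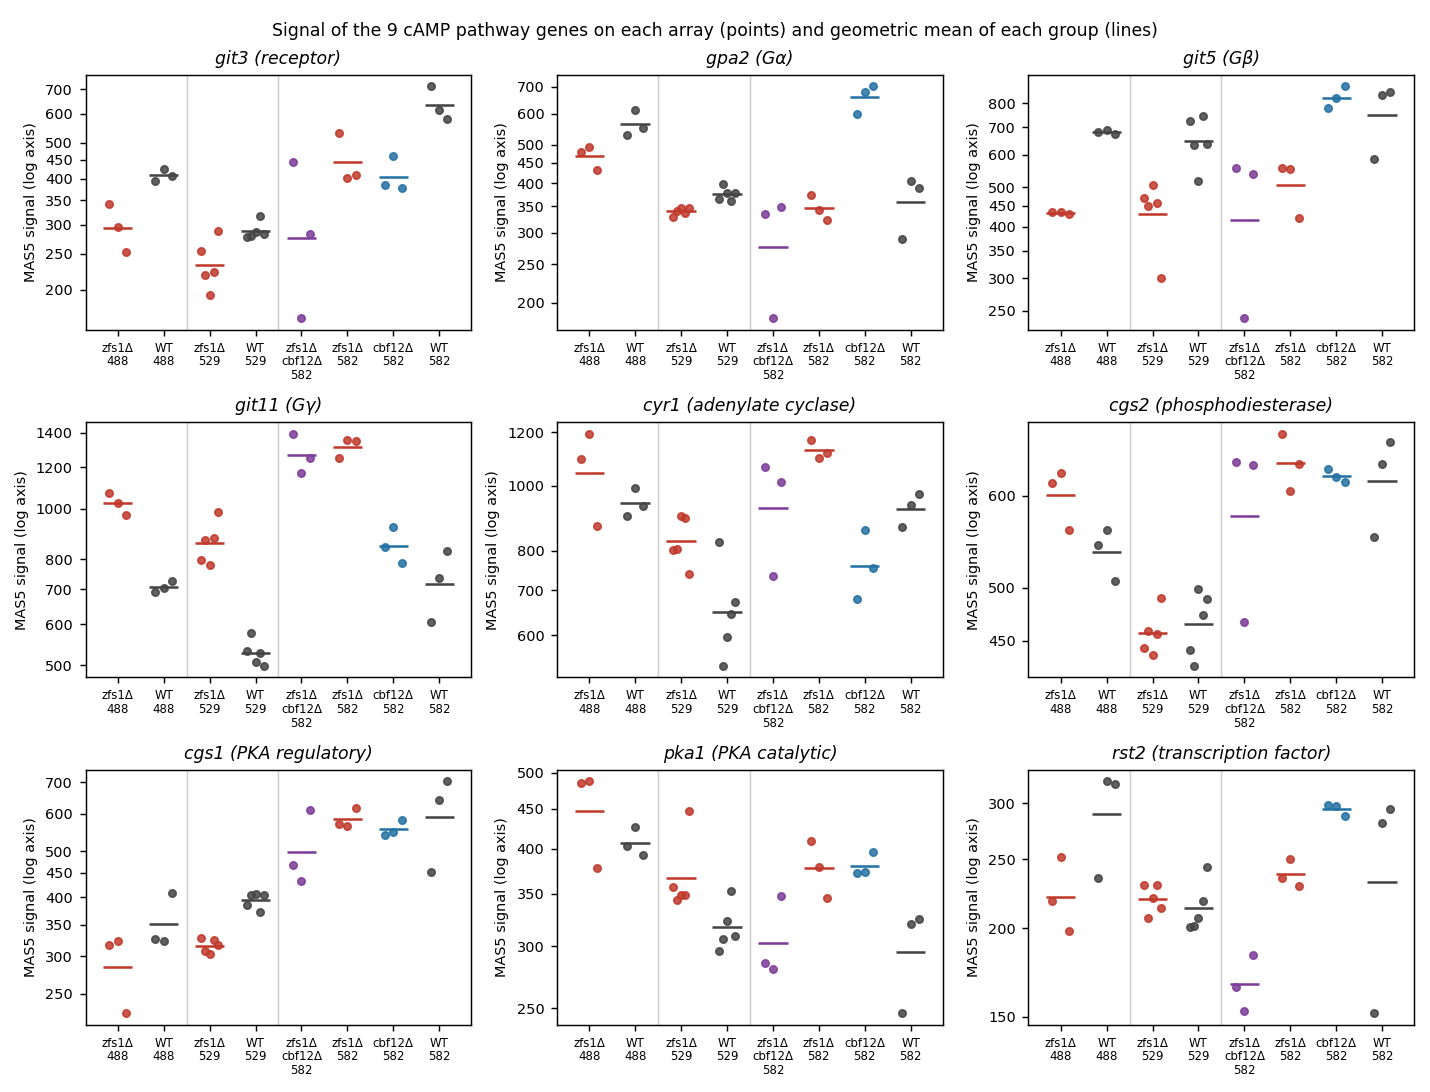
Signal (MAS5 units, log axis) of the 9 pathway genes by strain and project, 1 panel per gene, with each point an array and each line the geometric mean of its group. In the git11 panel all zfs1-null arrays sit above all WT arrays of their project, and in the git5 panel all sit below.

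The gamma subunit gene git11 gave the clearest difference among the members. Its signal was 1073, 1028 and 973 on the zfs1-null arrays of project 488, against 693, 703 and 726 in WT. In project 529 it was 798, 870.0, 779.6, 878 and 987 in the zfs1-null strain, against 534, 578, 507, 528 and 499 in WT. In project 582 the zfs1-null arrays read 1249, 1354 and 1347, against 606, 736 and 830.1 in WT. Every zfs1-null array lay above every WT array of its own project. Over the projects git11 rose 1.63-fold (log2 difference 0.70 ± 0.05 SE, 95% interval 0.59 to 0.81, adjusted p = 3.18e-11). By project the log2 rise was 0.53 ± 0.06 in project 488, 0.70 ± 0.06 in project 529 and 0.87 ± 0.11 in project 582, and each passed the test on its own (adjusted p = 0.000417, 7.69e-07 and 5.36e-05). By size of rise it stood at place 13 of the 2899 genes in the combined comparison.

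The beta subunit, with which Git11 forms a dimer, went the other way. Transcripts of git5 read 434, 435 and 429 in the zfs1-null strain of project 488, against 681, 690.3 and 674 in WT. The readings in project 529 were 470.1, 450.5, 505, 456 and 301 in the zfs1-null strain, against 725, 634, 517, 743 and 636 in WT. In project 582 they were 557, 552 and 421 in the zfs1-null strain, against 587, 839 and 852 in WT. The zfs1-null and WT ranges did not overlap in any project, although zfs1-null replicate 5 of project 529 and WT replicate 1 of project 582 lay well below the other arrays of their groups. Over the projects git5 signal was 1.51-fold lower (log2 difference -0.60 ± 0.08, 95% interval -0.77 to -0.43, adjusted p = 9.93e-07). It passed alone in projects 488 (-0.66, adjusted p = 0.000136) and 529 (-0.59, adjusted p = 0.00183). In the fit of all 4 strains of project 582 the difference of -0.57 did not pass (adjusted p = 0.15), the spread being taken from all 4 strains. It passed there without both arrays that stood apart (-0.74, adjusted p = 0.000146), without double null replicate 2 alone (adjusted p = 0.00793) and with the WT and zfs1-null arrays alone (adjusted p = 0.0342).

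The receptor gene git3 was lower without Zfs1. Its signal was 340.5, 296 and 253 in the zfs1-null strain of project 488, against 395, 426 and 406 in WT. In project 529 the zfs1-null arrays gave 255, 219, 193, 223 and 288, against 278, 279, 286, 318 and 283 in WT. Project 582 gave 532, 403 and 410.1 in the zfs1-null strain, against 713, 616 and 580.1 in WT. The ranges were apart in projects 488 and 582 and overlapped in project 529, where zfs1-null replicate 5 lay inside the WT range. Over the projects git3 fell by 0.41 ± 0.07 on the log2 scale (1.33-fold lower, 95% interval of the log2 difference -0.55 to -0.27, adjusted p = 2.51e-05). The log2 differences by project were -0.48 (adjusted p = 0.0119), -0.31 (0.0144) and, not passing, -0.51 (0.189) in projects 488, 529 and 582. Without WT replicate 2 the call in project 488 was lost (adjusted p = 0.0561). The difference in project 582 passed in only 2 of 21 alternative settings. They were without double null replicate 2 (adjusted p = 0.0308) and with the WT and zfs1-null arrays alone (adjusted p = 0.0229). Without both arrays that stood apart git3 did not pass there (-0.43, adjusted p = 0.0668).

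The alpha subunit gene gpa2 had the smallest of the called differences. It read 479, 493 and 432 in the zfs1-null strain of project 488, against 529, 611 and 552 in WT, and the groups did not overlap. In project 529 the zfs1-null arrays read 328, 340.1, 347, 337 and 347, against 365, 399, 378, 361 and 378 in WT, again without overlap. In project 582 the groups overlapped, with 375, 342 and 322 in the zfs1-null strain, against 290.1, 406 and 389 in WT. The combined log2 difference was -0.15 ± 0.05 (95% interval -0.26 to -0.04, adjusted p = 0.022). Within projects gpa2 passed in project 488 (-0.27, adjusted p = 0.047) and in project 529 (-0.15, adjusted p = 0.0238), and read -0.05 in project 582 (adjusted p = 0.896) and -0.20 there without both arrays that stood apart (adjusted p = 0.17). The call in project 488 was lost when any 1 of its 6 arrays was left out (adjusted p = 0.0561 to 0.189), and that in project 529 without WT replicate 2 or zfs1-null replicate 1 or 4 (adjusted p = 0.0632, 0.0609 and 0.0504).

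Of the 2 enzymes that set the cAMP level, the gene of the cyclase that makes it rose and that of the phosphodiesterase did not pass. Signal of cyr1 was 1094, 1194 and 872 in the zfs1-null strain of project 488, against 903, 991 and 934 in WT. In project 529 it was 802, 806, 900.0, 897 and 740.3 in the zfs1-null strain, against 825, 540.2, 596, 644 and 672 in WT, and in project 582 it was 1171, 1100.3 and 1117 in the zfs1-null strain, against 867, 937 and 973 in WT. The groups overlapped in project 488 and, through WT replicate 1, in project 529, and did not overlap in project 582. The combined rise was 1.21-fold (log2 difference 0.28 ± 0.06, 95% interval 0.15 to 0.40, adjusted p = 0.000556). By project the log2 difference was 0.15 (adjusted p = 0.333), 0.35 (0.00789) and 0.29 (0.141) in projects 488, 529 and 582, so only project 529 passed alone in these fits. In project 488 it passed without zfs1-null replicate 3 (0.28, adjusted p = 0.00812). In project 582 it passed in only 2 of 21 alternative settings. They were without double null replicate 2 (adjusted p = 0.0287) and with the WT and zfs1-null arrays alone (adjusted p = 0.0231). Without both arrays that stood apart cyr1 did not pass there (0.24, adjusted p = 0.0635).

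The phosphodiesterase gene cgs2 lay close to WT. It averaged 601 ± 35.9 in the zfs1-null strain and 537 ± 27.6 in WT of project 488 (SD, n = 3 each). Project 529 gave 457 ± 20.2 in the zfs1-null strain and 466 ± 30.2 in WT (n = 5 each), and project 582 gave 641 ± 36.5 in the zfs1-null strain and 619 ± 59.6 in WT (n = 3 each). The ranges overlapped in all 3 projects. With a combined log2 difference of 0.05 ± 0.04 (adjusted p = 0.418), the 95% interval was -0.05 to 0.14.

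The subunits of protein kinase A moved apart. The regulatory subunit gene cgs1 read 317, 323 and 227 in the zfs1-null strain of project 488, against 326, 323 and 409 in WT, and 327, 308, 304, 325 and 317 in the zfs1-null strain of project 529, against 386, 404, 407, 372 and 405 in WT. Neither pair of groups overlapped, and the gap in project 488 was under 1 signal unit. In project 582 the zfs1-null arrays, at 571, 564 and 617, lay within the WT range of 453, 642 and 703. Combined, cgs1 signal was 1.17-fold lower (log2 difference -0.23 ± 0.07, 95% interval -0.38 to -0.08, adjusted p = 0.0112). Only project 529 passed alone (-0.32, adjusted p = 0.000126). The differences were -0.30 (adjusted p = 0.167) in project 488 and -0.01 (adjusted p = 0.964) in project 582, where it was -0.20 without both arrays that stood apart (adjusted p = 0.18).

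The catalytic subunit gene pka1 gave 485, 488 and 378 in the zfs1-null strain of project 488, against 403, 426 and 393 in WT. Project 529 gave 358, 344, 349, 349 and 447 in the zfs1-null strain, against 296, 307, 323, 353 and 309.6 in WT, and project 582 409, 379 and 346 in the zfs1-null strain, against 246, 320.3 and 325 in WT. The ranges overlapped in projects 488 and 529 and were apart in project 582. The combined rise was 1.17-fold (log2 difference 0.23 ± 0.06, 95% interval 0.10 to 0.36, adjusted p = 0.00419). By project it was 0.14 (adjusted p = 0.384), 0.21 (0.0358) and 0.35 (0.0866) in projects 488, 529 and 582. Without both arrays that stood apart, the value in project 582 was 0.22 (adjusted p = 0.161), and under quantile normalization it passed (0.50, adjusted p = 0.00672). The call in project 529 was lost with array medians set equal (0.15, adjusted p = 0.119), under quantile normalization (0.13, adjusted p = 0.167) and without WT replicate 1, 2, 3 or 5 or zfs1-null replicate 1 (adjusted p = 0.0513 to 0.0761). Without zfs1-null replicate 5, the highest array, the difference was 0.14 (adjusted p = 0.0731). In project 488 pka1 passed without zfs1-null replicate 3 (0.26, adjusted p = 0.029).

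The transcription factor gene rst2, the last member in the order of the pathway, did not pass on loss of zfs1. It read 218, 252 and 198 in the zfs1-null strain of project 488, against 235, 322 and 319 in WT. In project 529 it averaged 220.0 ± 10.3 in the zfs1-null strain and 214 ± 18.2 in WT (SD, n = 5 each). In project 582 it averaged 238 ± 10.6 in the zfs1-null strain and 243 ± 79.1 in WT (n = 3 each), with WT replicate 1 at 152 and the other WT arrays at 281 and 295. The groups overlapped in every project. The log2 difference was -0.38 (adjusted p = 0.0734), 0.04 (0.643) and 0.03 (0.929) in projects 488, 529 and 582, and -0.08 ± 0.09 combined (95% interval -0.27 to 0.11, adjusted p = 0.526). Without both arrays that stood apart, the value in project 582 was -0.27 (adjusted p = 0.0851). In project 488 it passed without WT replicate 1 (-0.53, adjusted p = 0.0233).

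**Figure D2:**
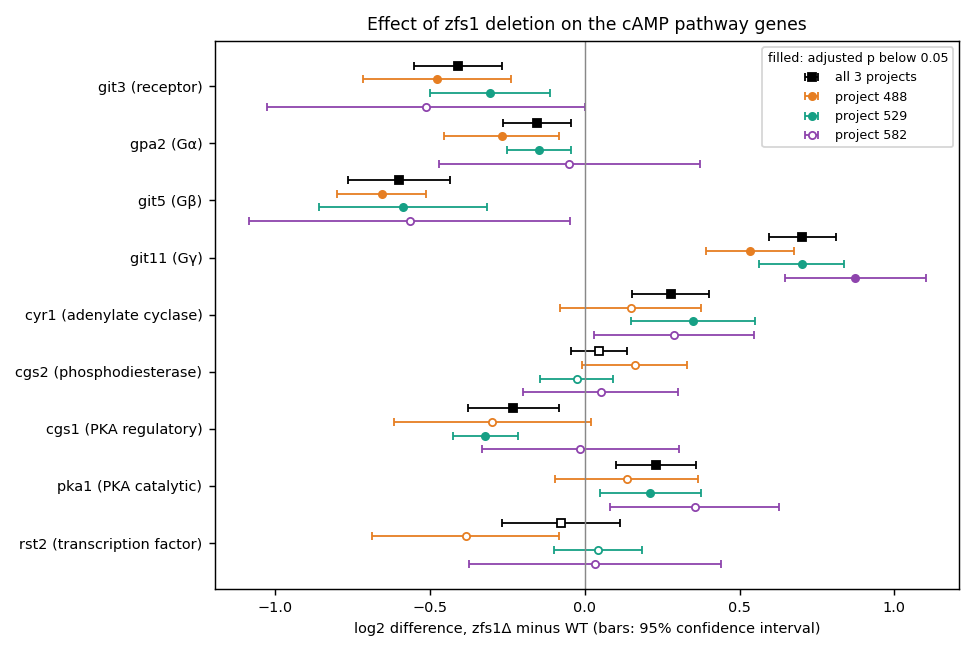
Log2 difference in signal, zfs1-null minus WT, of the 9 pathway genes in each project and over the 3 projects, with 95% intervals and filled points where the adjusted p was below 0.05. Of the 9 genes, git11 is filled to the right of 0 in all 4 estimates, and cgs2 and rst2 are filled in none.

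The number of pathway genes called differed between the projects. In project 488 it was 4 of 9, 1 higher and 3 lower, where 19.7 percent of all genes were called. In project 529, with 5 arrays per group, it was 7 of 9, 3 higher and 4 lower, beside 42.2 percent of all genes. In project 582 only git11 was called, 1 of 9, beside 11.3 percent of all genes. The difference of the zfs1 effect between projects was tested for each gene, and 0 of the 9 passed, where 19.7 percent of all genes did. The smallest adjusted p was 0.133, for git11, and 1037 of all genes had an unadjusted p below 0.05, with git11 the only pathway gene among them. Quantile normalization brought git11 past the threshold (adjusted p = 0.042), as did leaving out WT replicate 3 of project 582 (adjusted p = 0.0333), and leaving out WT replicate 1 of that project did so for rst2 (adjusted p = 0.0466). Without a term for project, git11 and git5 kept their calls in the combined comparison, while git3, gpa2, cyr1, cgs1 and pka1 lost them (adjusted p = 0.0897 to 0.417).

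Loss of cbf12 in cells with Zfs1 was followed by higher gpa2 and pka1, with pka1 called in only 10 of 21 alternative settings. In this comparison 2 of 9 pathway genes were called, both higher, where 28.1 percent of all genes were called. The median log2 difference of the 9 was 0.14, beside -0.07 over all genes. Without both arrays that stood apart the median of the 9 was -0.04. With array medians set equal, the median over all genes shifted by 0.11, so log2 differences near this size have no settled direction here. All comparisons with WT in project 582 use the same 3 WT arrays.

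The alpha subunit gene gpa2 read 599, 679 and 703 in the cbf12-null strain, against 290.1, 406 and 389 in WT, with no overlap. It was 1.84-fold higher (log2 difference 0.88 ± 0.20, 95% interval 0.46 to 1.30, adjusted p = 0.00392). This call held under all 21 alternative settings, with log2 differences of 0.73 to 1.12, and without both arrays that stood apart the difference was 0.73 (adjusted p = 3.43e-05). The WT of project 488, measured on other arrays, stood at 564 ± 42.0, closer to the cbf12-null level, and the WT of project 529 at 376 ± 14.99 (SD, n = 3 and 5).

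The catalytic subunit gene pka1 read 372, 374 and 396 in the cbf12-null strain, against 246, 320.3 and 325 in WT. The ranges were apart, and WT replicate 1 was the lowest array. Its log2 rise of 0.37 ± 0.13 (adjusted p = 0.0449) was lost without both arrays that stood apart (0.24, adjusted p = 0.0982) and without WT replicate 1 alone (0.24, adjusted p = 0.149). It was also lost without WT replicate 2, without any of the cbf12-null arrays and without any of the zfs1-null arrays (adjusted p = 0.0527 to 0.135). The WT level of project 582 was also estimated from its zfs1-null arrays and the effect of zfs1 loss in projects 488 and 529. This takes the zfs1 effect as equal in all projects. The call of pka1 was lost with that estimate too (0.20, adjusted p = 0.303). The receptor gene git3 read 383, 460.2 and 377 in the cbf12-null strain, against 713, 616 and 580.1 in WT, without overlap. Its log2 difference of -0.65 ± 0.24 missed the threshold (adjusted p = 0.0562) and passed without both arrays that stood apart (-0.56, adjusted p = 0.0102). The other 6 genes had log2 differences between -0.28 for cyr1 and 0.34 for rst2, and of these cyr1 (-0.33, adjusted p = 0.00774) and cgs1 (-0.27, adjusted p = 0.0492) passed without both arrays, while rst2 stood at 0.03. The gamma subunit gene git11 (0.24, adjusted p = 0.1) passed with array medians set equal (0.35, adjusted p = 0.0177) and under quantile normalization (0.38, adjusted p = 0.0121), the setting in which rst2 passed too (0.53, adjusted p = 0.0362). It also passed without WT replicate 3 (0.35, adjusted p = 0.0314), so that git11 was called in 3 of 21 alternative settings. Without both arrays that stood apart git11 was at 0.12 (adjusted p = 0.276).

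In cells without Zfs1, the further loss of cbf12 gave no call: 0 of the 9 pathway genes passed in the double null against the zfs1-null strain, where 9 percent of all genes did. At an unadjusted p below 0.05, 777 of the 2899 genes and 4 of the 9 differed, namely git3 (-0.69), rst2 (-0.51), pka1 (-0.32) and cyr1 (-0.29), all lower in the double null. The median of the 9 was -0.29, beside -0.03 over all genes. Without both arrays that stood apart the median of the 9 was -0.12, git3 stood at -0.33 (adjusted p = 0.201) and cyr1 at -0.12 (adjusted p = 0.414). With both left out rst2 passed (-0.45, adjusted p = 0.012), as it did without WT replicate 1 alone (adjusted p = 0.00482). Without double null replicate 1, git3 (-1.03, adjusted p = 0.00294) and cyr1 (-0.39, adjusted p = 0.0475) passed.

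Whether the effect of 1 deletion depends on the other was tested as an interaction, which is the zfs1 effect without Cbf12 minus that with Cbf12. It passed for 2 of the 9 genes, gpa2 and pka1, both negative, where 9.76 percent of all genes passed. For gpa2 the zfs1 effect was -1.25 without Cbf12 and -0.05 with it, an interaction of -1.20 ± 0.28 (95% interval -1.80 to -0.61, adjusted p = 0.0115). The gpa2 signal was 334, 182 and 348 in the double null, 375, 342 and 322 in the zfs1-null strain, 599, 679 and 703 in the cbf12-null strain and 290.1, 406 and 389 in WT. The cbf12-null strain alone was high, and the other 3 strains overlapped. Without both arrays that stood apart the gpa2 interaction was -0.75 ± 0.14 (adjusted p = 0.00183).

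For pka1 the signal was 285, 281 and 348 in the double null, 409, 379 and 346 in the zfs1-null strain, 372, 374 and 396 in the cbf12-null strain and 246, 320.3 and 325 in WT. Each single null lay above WT, and the double null overlapped WT. The zfs1 effect on pka1 was -0.33 without Cbf12 (adjusted p = 0.0616) and 0.35 with it (adjusted p = 0.0866), an interaction of -0.68 ± 0.18 (95% interval -1.07 to -0.29, adjusted p = 0.0252). It was -0.50 (adjusted p = 0.0413) without both arrays that stood apart, and missed the threshold without zfs1-null replicate 1 or 2 or cbf12-null replicate 1 or 3 (adjusted p = 0.0528 to 0.0689).

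For rst2 the interaction of -0.85 ± 0.27 missed the threshold (adjusted p = 0.0575). Its signal was 165, 153 and 184 in the double null, 235, 250.1 and 229.6 in the zfs1-null strain, 298, 297 and 288 in the cbf12-null strain and 152, 281 and 295 in WT. The double null was below both single nulls on all arrays, and only WT replicate 1 read as low. The interaction passed in 6 of 20 alternative settings and missed the threshold in the others, with adjusted p up to 0.132. It passed without WT replicate 1 (-0.54, adjusted p = 0.042), WT replicate 2 (-0.99) or WT replicate 3 (-1.02). The other passes were without both arrays that stood apart (-0.48, adjusted p = 0.0437) and under both other scalings (-0.89 and -0.82). Over the 6 genes that remain, the adjusted p of the interaction lay between 0.257 for git11 and 0.988 for cyr1. Of these git5 read -0.42, and 0.15 without both arrays that stood apart (adjusted p = 0.555).

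**Figure D3:**
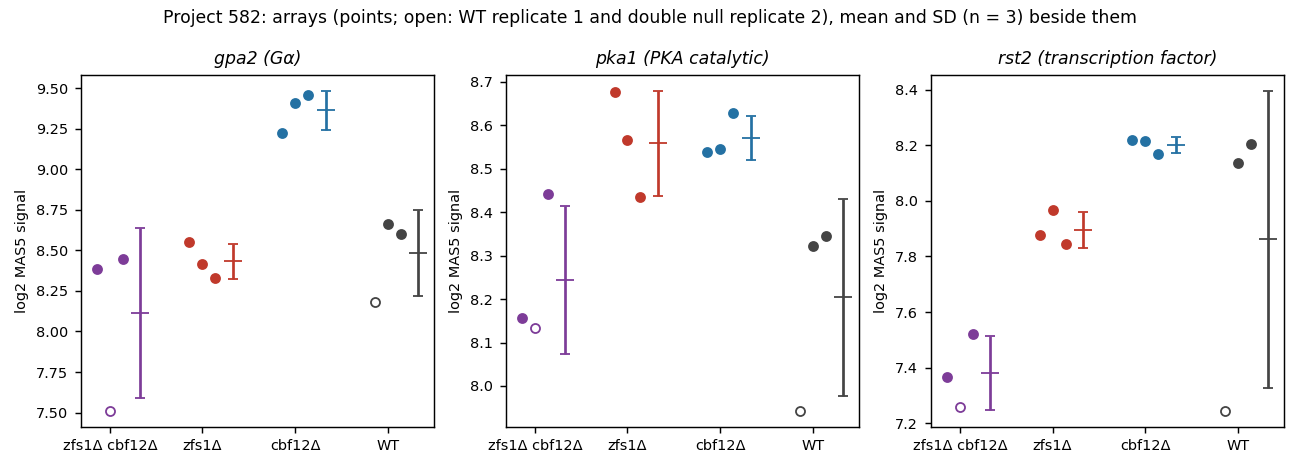
Log2 of the MAS5 signal of gpa2, pka1 and rst2 in the 4 strains of project 582, with each point an array, open points the arrays WT replicate 1 and double null replicate 2, and bars the mean ± SD (n = 3). The cbf12-null arrays of gpa2 lie between 9.23 and 9.46, above all arrays of the other strains, and the double null arrays of rst2 lie between 7.26 and 7.52, below both single nulls.

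In cells without Cbf12, 4 of the 9 pathway genes were called on loss of zfs1, 1 higher and 3 lower, where 33.8 percent of all genes were. The git11 signal was 1393, 1169 and 1251 in the double null, against 845, 921 and 787 in the cbf12-null strain, and did not overlap (log2 difference 0.58 ± 0.11, adjusted p = 0.000706). That of git5 was 558, 239.7 and 539 in the double null, against 777, 821 and 880.2 in the cbf12-null strain. The groups were apart, with double null replicate 2 far below the rest. The fall of git5 was -0.99 ± 0.24 on the log2 scale (adjusted p = 0.00616), and -0.59 without both arrays that stood apart (adjusted p = 0.000364). The fall of gpa2, -1.25 ± 0.20, had an adjusted p of 0.000193, and that of rst2, -0.82 ± 0.19, one of 0.00424. With both arrays left out 5 genes passed, since cyr1 was added (0.45, adjusted p = 0.000679). The difference of git3, -0.56 (adjusted p = 0.0869), passed without double null replicate 1 (-0.90, adjusted p = 0.00235) and was -0.20 without both arrays that stood apart (adjusted p = 0.343). That of pka1, -0.33 (adjusted p = 0.0616), passed in only 4 of 20 alternative settings. Among them were those without WT replicate 1 (-0.33, adjusted p = 0.0271) or double null replicate 3 (-0.43, adjusted p = 0.0306). Without both arrays that stood apart pka1 was at -0.27 (adjusted p = 0.0601).

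The double null differed from WT in git11, git3 and git5, 3 of 9 genes, where 35.1 percent of all genes were called. Of these git11 rose 1.77-fold (log2 difference 0.82 ± 0.11, adjusted p = 4.75e-05). The receptor gene git3, at 443, 167 and 283 in the double null, against 713, 616 and 580.1 in WT, had a log2 difference of -1.20 ± 0.24 (adjusted p = 0.00185), the only 1 of the 3 to pass 2-fold. Its groups did not overlap, but the double null spread widely, and without both arrays that stood apart the difference was -0.76 (adjusted p = 0.00351). For git5 it was -0.85 ± 0.24 (adjusted p = 0.0147), a call that was lost without WT replicate 2 or 3 (adjusted p = 0.0545 and 0.0576) and kept without both arrays that stood apart (-0.63, adjusted p = 0.000846). Without both arrays, cgs1 (-0.33, adjusted p = 0.0363) and rst2 (-0.73, adjusted p = 0.000252) passed as well.

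Across the 8 groups, ordered by mean log2 signal, git11 was lowest in WT of project 529 (529 ± 30.7, SD, n = 5), followed by WT of project 488 (707 ± 16.8) and of project 582 (724 ± 112). Next came the cbf12-null strain (851 ± 67.1) and the zfs1-null strains of projects 529 (862 ± 81.8) and 488 (1024 ± 50.2). Highest were the double null (1271 ± 113) and, also in project 582, the zfs1-null strain (1317 ± 58.2). Neighbours in this order overlapped, except for WT of projects 488 and 529 and for the double null over the zfs1-null strain of project 488. For git5, cyr1 and pka1 all 7 neighbouring pairs overlapped. The spread of group means, highest over lowest, was 2.72-fold for git3, from WT of project 582 down to the zfs1-null strain of project 529, and 1.4-fold for cgs2.

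Part of that spread lay between projects, in which the same strain names were measured on different arrays. In WT, git3 averaged 409 ± 15.7, 289 ± 16.5 and 636 ± 68.9 in projects 488, 529 and 582, so that project 582 was above project 529 by 1.14 on the log2 scale. The WT means of cgs1 were 353 ± 48.6, 395 ± 15.2 and 599 ± 130.3. For both genes the WT of project 582 differed from that of each other project by more than the combined zfs1 effect. Within groups the SD of log2 signal reached 0.70 for git3, 0.69 for git5 and 0.52 for gpa2 in the double null, where replicate 2 was the lowest array for each of them, and 0.54 for rst2 in WT of project 582, where replicate 1 was the lowest.

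Transcripts with the pattern most like that of git11 over the 28 arrays, after subtracting each project's mean, were mkh1 (Pearson r = 0.95), a MAP kinase kinase kinase, arz1 (0.95) and oxr1 (0.93). For git5 they were atg6 (0.88), mug73 (0.88) and mug98 (0.86). For git3 they were erg24 (0.88), oma1 (0.85) and alp16 (0.84), and for gpa2 ayr1 (0.92), atd3 (0.90) and mug182 (0.90). The closest to cyr1 were rsc7 (0.87), vtc4 (0.87) and mip1 (0.85). The closest to cgs1 were his2 (0.76), otu1 (0.76) and rdh54 (0.75), and to pka1 sep1 (0.85), ksg1 (0.76) and sdh2 (0.74). These values are descriptions: the points share strains, array scaling and the arrays that stood apart, and 2899 genes were searched. Between members, git5 and git11 had r = -0.70 and gpa2 and git5 r = 0.75.

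Further genes, of this pathway and of others related to it, were taken as 5 lists with 28 genes in all, each measured. On loss of zfs1 2 of the 6 glucose-repressed or Rst2-dependent genes rose and 4 fell, where 41.6 percent of all genes were called, with a median log2 difference of -0.37, beside 0.02 over all genes. The fructose-1,6-bisphosphatase gene fbp1, the classical readout of the pathway, read 320.3, 337 and 272 in the zfs1-null strain of project 488, against 522, 516 and 499 in WT. In project 529 it read 402, 425, 485, 395 and 416 in the zfs1-null strain, against 795, 827, 828, 858 and 832 in WT. In project 582 it read 604, 659 and 609 in the zfs1-null strain, against 801, 988 and 1048 in WT. All zfs1-null arrays lay below all WT arrays of their project, and the combined log2 difference was -0.80 ± 0.06 (adjusted p = 1.26e-11). The meiosis regulator gene mei2, at -1.89 ± 0.10, the glycerol dehydrogenase gene gld1, at -0.50 ± 0.12, and ste11, at -0.24 ± 0.08, also fell. The zfs1 effect differed between projects for gld1 (adjusted p = 0.00136), mei2 (0.00231) and, narrowly, fbp1 (0.0484, called in 12 of 30 alternative settings), and did not pass for ste11 (0.0827). By project gld1 read 0.20, -0.90 and -0.55, and ste11 -0.50, -0.03 and -0.33, in projects 488, 529 and 582. The zinc finger gene rsv1 (0.26 ± 0.08) and the invertase gene inv1 (0.16 ± 0.04) rose. Neither passed in any project alone (adjusted p = 0.0618 to 0.629 for rsv1 and 0.129 to 0.296 for inv1).

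On loss of cbf12 in cells with Zfs1, mei2 (0.86, adjusted p = 0.00117) and rsv1 (0.49, 0.0114) rose while ste11 (-1.001, 8.17e-06) and gld1 (-0.60, 0.000396) fell, 4 of 6 where 28.1 percent of all genes were called. With the WT level of project 582 estimated as above, mei2 stood at 0.27 and gld1 at -0.53, and neither passed. Because that estimate takes the zfs1 effect as equal in all projects, which was not so for mei2 and gld1, it cannot decide their calls. The double null was lower in 6 of 6 of these genes than the zfs1-null strain (median -1.77), than the cbf12-null strain (-1.68) and than WT (-1.69), 3 comparisons that share the double null arrays and in which 9, 33.8 and 35.1 percent of all genes were called. For fbp1 the double null arrays read 453, 339.8 and 381, the zfs1-null arrays 604, 659 and 609, the cbf12-null arrays 1147, 1258 and 1038 and the WT arrays 801, 988 and 1048. The double null was below all other strains without overlap, and the fbp1 interaction was -0.97 ± 0.17 (adjusted p = 0.00148). The interaction passed, with a negative value, for 5 of the 6, where 9.76 percent of all genes passed, all but ste11 (-0.39, adjusted p = 0.15), which passed without both arrays that stood apart (-0.29, adjusted p = 0.0456).

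Among other genes of G protein signalling, 3 of 6 changed on loss of zfs1, where 41.6 percent of all genes were called (median 0.02). The Gβ-like gene gnr1 (0.50 ± 0.10) and rgs1 (0.35 ± 0.12), for the GTPase activator of the pheromone Gα, rose, and gpa1 (-0.31 ± 0.08), for that Gα, fell. Their effects differed between projects (adjusted p = 3.55e-05, 1.78e-05 and 0.00415 for gnr1, rgs1 and gpa1), with gnr1 at 0.32, 0.93 and -0.05, rgs1 at 0.89, 0.53 and -0.51, and gpa1 at -0.64, 0.02 and -0.52 in projects 488, 529 and 582. The rgs1 call over the projects was lost without WT replicate 3 or zfs1-null replicate 1 or 2 of project 488 (adjusted p = 0.0507 to 0.0564). On loss of cbf12 in cells with Zfs1 these 3 genes fell, where 28.1 percent of all genes were called: gnr1 by 1.20, rgs1 by 1.24 and gpa1 by 0.44 on the log2 scale. With the WT level of project 582 estimated, rgs1 stood at -0.07 and gpa1 at -0.15, and neither passed, while gnr1 kept its call at -0.45. That estimate takes the zfs1 effect as equal in all projects, which was not so for these genes, so it cannot decide their calls. The pheromone receptor genes mam2 (0.01) and map3 (0.01) and the receptor-like gene stm1 (0.04) did not pass on loss of zfs1.

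Of 10 other factors that act on fbp1, 5 changed on loss of zfs1, 3 higher and 2 lower, where 41.6 percent of all genes were called (median 0.05). Higher were wis1 (0.28 ± 0.03), the MAP kinase kinase of the stress pathway, scr1 (0.28 ± 0.06), a zinc finger repressor, and tup11 (0.19 ± 0.03), a corepressor. Lower were atf1 (-0.40 ± 0.06), a bZIP activator, and php3 (-0.09 ± 0.03), a subunit of the CCAAT-binding complex, whose call was lost without WT replicate 3 or 5 or zfs1-null replicate 5 of project 529 (adjusted p = 0.0512 to 0.0543). On loss of cbf12 in cells with Zfs1, atf1 rose (0.30, adjusted p = 0.0321) and php3 fell (-0.41, adjusted p = 0.00601), 2 of 10 beside 28.1 percent of all genes, and the call of atf1 was lost without WT replicate 1 or 2 or any of the cbf12-null arrays (adjusted p = 0.061 to 0.0936). The MAP kinase gene sty1 (0.02) and pcr1 (0.05), for the partner of Atf1, were among those that did not pass on loss of zfs1.

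Of 4 accessory genes of cyclase activation, git7 rose on loss of zfs1 (0.18 ± 0.04, adjusted p = 0.000299) and git1 fell (-0.19 ± 0.08, adjusted p = 0.0497). They are 2 of 4, beside 41.6 percent of all genes. The git1 call held in only 11 of 31 alternative settings. The chaperone gene hsp90 and the cyclase-associated gene cap1 did not pass, and 0 of the 4 were called on loss of cbf12 in cells with Zfs1, although cap1 passed there without both arrays that stood apart (-0.33, adjusted p = 0.00472). The kinase genes sck1 (-0.02) and sck2 (0.04), whose products overlap in function with Pka1, passed in neither comparison.

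**Figure D4:**
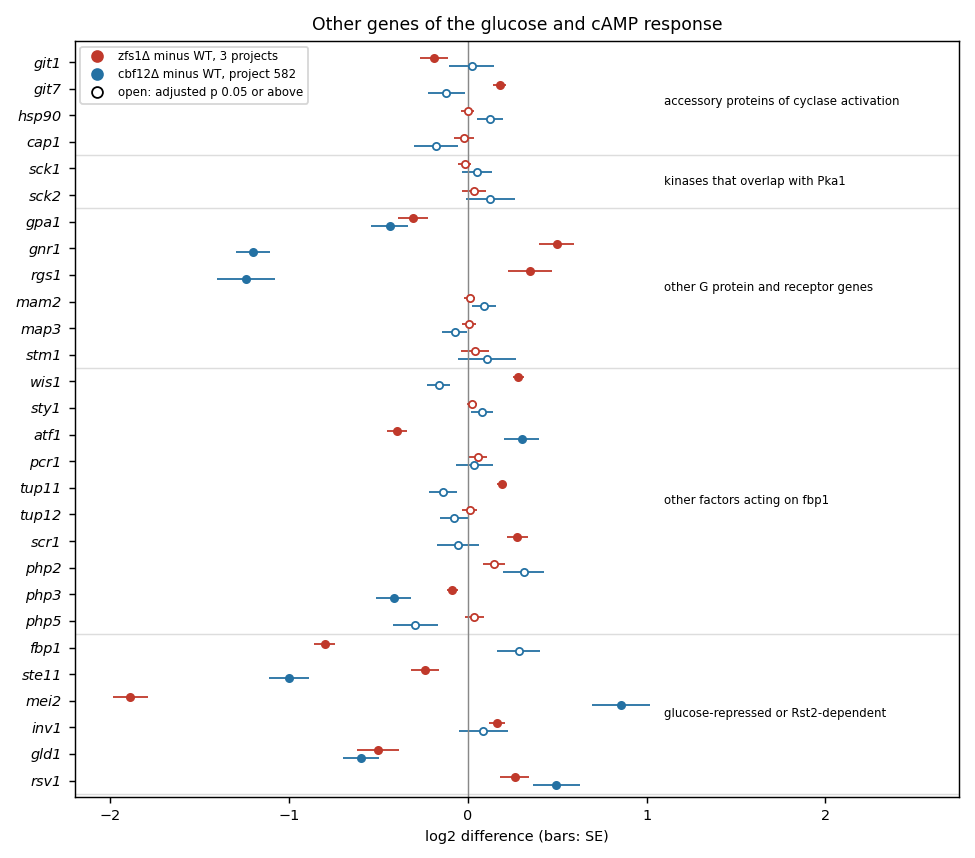
Log2 difference in signal ± SE for the 28 genes of the 5 lists, for zfs1-null minus WT over the 3 projects and for cbf12-null minus WT in project 582. The lowest point for loss of zfs1 is mei2 at -1.89, and those for loss of cbf12 are rgs1 at -1.24 and gnr1 at -1.20.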

How the data were processed

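The deposited values are linear intensities, computed with MAS5 per the submitters' processing notes, of 10928 probe sets on each array. No source used here gives the MAS5 version or settings. The trimmed mean (2 percent at each end) of the deposited values lay between 500.1 and 500.2 on all 28 arrays, which hides any change common to most transcripts. Amplification before labelling, per the labels' protocols, may distort differences. Names came from the platform annotation, updated through an annotation of assembly ASM294v3. No coordinates are printed, since the build behind the array is not stated. A total of 2917 probe sets named 1 S. pombe gene, and the brightest per gene gave 2899 genes. Background was percentile 95 of other-species probe sets, 3.65 to 5.44 units.

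Linear models of log2 signal were fitted to all genes with limma 3.58.1 in R 4.3.3 (intensity trend). The combined comparison used 22 arrays and a project term, and the 4 strains of project 582 were fitted together. The scripts were tested on simulated data. The number of arrays limits precision. The members, the 5 lists and the tests were chosen with earlier results of these data known, and the control transcripts and the left-out arrays after values were seen. Named were all members, list genes called in the combined zfs1 or first cbf12 comparison with up to 2 examples otherwise, and the 3 genes most like each called member. Alternatives were 2 scalings, a background filter, the mean of probe sets, an offset of 16, no trend, a replicate block, no project term, fewer strains, an estimated WT level and arrays left out. The motif search was not run.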

Additional observations from a re-analysis of the deposited data

Results flagged for a closer look

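Single arrays far from the rest of their group were sought in 18 sets of 5 arrays (9 genes in 2 groups), where chance gives about 1 flag in 20, and 3 were found. In the zfs1-null strain of project 529, replicate 5 was the lowest array for git5, at 301, and the highest for pka1, at 447. Without it the log2 difference from WT in that project was -0.46 for git5, and pka1 lost its call (0.14, adjusted p = 0.0731). In WT of project 529, replicate 4 was the highest array for git3, at 318, and without it git3 was still called. The effect of zfs1 loss differed with the presence of Cbf12 for gpa2 (interaction -1.20) and pka1 (interaction -0.68), by the test of the difference itself. Both values rest on the 12 arrays of project 582.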

How the results depend on the processing

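Leaving out each array in turn moved the number of pathway genes called over 2 to 5 in project 488, 1 to 4 in project 582, 1 to 4 for cbf12 loss with Zfs1, 0 to 2 for cbf12 loss without Zfs1, 2 to 5 for the double null against WT, 1 to 3 for the interaction and 0 to 1 for the difference between projects. Counts over all genes then lay at 312 to 759 in project 488, 183 to 544 in project 582, 490 to 1068 for cbf12 loss with Zfs1 and 120 to 446 for it without Zfs1. Without a project term 481 genes and 2 members were called in the combined comparison. Quantile normalization gave 2 members in project 582, 4 for cbf12 loss with Zfs1, 1 for the difference between projects (321 genes) and 601 genes for the double null against WT. The WT and zfs1-null arrays alone gave 4 members in project 582, and the estimated WT level gave 6 for the double null. Without both arrays that stood apart, a choice made after seeing the data, 563 genes and 2 members were called in project 582, 4 members for cbf12 loss with Zfs1, 1 for it without Zfs1, 5 for the double null, 441 genes for the interaction and 1 member for the difference between projects. The cause of these shifts was not tested. Deviations of same-numbered arrays from their group means correlated weakly and in both directions (r from -0.301 to 0.306). In project 529, zfs1-null replicates 2 to 5 each correlated best with the same-numbered WT array (r = 0.086 to 0.144), and replicate 1 did not (r = -0.055). These correlations do not settle whether the numbers pair samples. A replicate block left 1092 genes and 6 members called in the combined comparison, with gpa2 lost (adjusted p = 0.0505). For cbf12 loss with Zfs1, the block lost pka1 (adjusted p = 0.0518) and gained git3 (0.043). Among list genes under quantile normalization, hsp90 turned from 0.02 to -0.13 (double null against cbf12-null) and from 0.15 to -0.15 (double null against WT). With the estimated WT level, which takes the zfs1 effect as equal in all projects, gnr1 turned from -0.57 to 0.18 (double null against WT). Of all values recomputed, 192 lost the call, 153 gained it, these 3 turned sign with a call in 1 of the settings compared, and 240 turned sign without a call in either. The git11 call held in every setting of the 3 projects, alone and combined. Leaving out both arrays that stood apart lowered the SE of git5 in project 582 to 0.11, against 0.24 with them.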
